A study of Mus musculus with 6 samples.

Results

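The genes described here encode the nuclear pore complex and the nuclear lamina, the structures that bound the nucleus. They were taken from the array annotation as every probe set assigned to a single symbol that starts with Nup and a digit, or to 1 of a list of further pore, lamina and inner nuclear membrane genes (Nupl1, Nupl2, Seh1l, Sec13, Ranbp2, Pom121, Aaas, Rae1, Ndc1, Lmna, Lmnb1, Lmnb2, Banf1, Emd, Lbr, Sun1, Sun2 and Tmpo). This gave 79 of 21646 tested probe sets and 36 of 11429 genes. Tpr, Nup35, Nup210l and Nup62cl, which the same choice would take, had no probe set of this kind in the table used here and were not analysed here. Each gene is represented below by its brightest probe set, the one with the highest mean over the 6 arrays, and 25 of the 36 genes had more than 1.

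Transcripts were measured in mouse oocytes that had completed maturation (MII, 3 arrays) and in oocytes that had not begun it (GV, 3 arrays), to find which transcripts change and which stay stable. All mice were 22 to 24 days old and had received 5 IU of equine chorionic gonadotropin (eCG). MII oocytes, arrested at metaphase of the second meiotic division with a visible first polar body, were ovulated oocytes taken from the oviduct 14 h after 5 IU of human chorionic gonadotropin (hCG) and freed from cumulus cells with hyaluronidase. GV oocytes, fully grown and with an intact nucleus called the germinal vesicle, were taken from large antral follicles 44 to 46 h after eCG, freed from cumulus cells by pipetting, and held in medium with 5 µM milrinone, an inhibitor of the phosphodiesterase PDE3 that keeps meiosis arrested. Each array received RNA of a pool of 300 oocytes. Neither strain nor number of mice behind a pool is given in the sources used here. Labelling began from 10 ng of total RNA at both stages, and the values were then processed with RMA, so they are relative and not amounts per oocyte. A change in the amount of RNA per oocyte was not measured, and in such pools less RNA per oocyte and a smaller share of contributing cells cannot be told apart.

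The arrays of a stage resembled each other more closely than those of different stages, with correlations of 0.988 to 0.991 within and 0.885 to 0.906 between stages, taken over probe sets. The oocyte identity of the samples was checked first, and 13 of 14 measured oocyte genes were above the median of every array. Of 8 measured granulosa and cumulus genes, 6 were below the median of every array. In MII oocytes 3 of the 8 were called lower, where 37.8% of all genes were. The summed level of the 8 was 8.02 to 8.35 on the log2 scale in MII and 8.64 to 8.80 in GV arrays. The brightest of them, Nr5a2, averaged 6.81 in MII and 7.66 in GV arrays. The 4 measured genes of cumulus expansion were below the median of every array, with summed log2 levels of 4.92 to 5.02 in MII and 4.86 to 5.04 in GV arrays. The difference between 3′ and 5′ control probes was 0.12 to 0.87 in MII and 0.26 to 0.98 in GV arrays for actin, and 1.88 to 2.48 in MII and 2.61 to 3.00 in GV arrays for Gapdh. What part these differences have in the results below was not tested. The medians of the arrays lay at 5.47 to 5.49 in MII and at 6.10 to 6.12 in GV oocytes, so the results depend on the scale chosen between stages, which is taken up after the gene groups.

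The nuclear pore complex is a large assembly that spans the nuclear envelope and carries proteins and RNA between nucleus and cytoplasm. A scaffold of stacked rings, anchored in the membrane by transmembrane subunits, holds a central channel filled with subunits rich in phenylalanine-glycine repeats, with filaments on the cytoplasmic side and a basket on the nuclear side. The lamina is a meshwork of lamin filaments under the inner nuclear membrane, tied to that membrane and to chromatin by membrane proteins. When an oocyte resumes meiosis the envelope breaks down, the pores come apart and the lamina depolymerises, and both are built again only after fertilisation. Fully grown oocytes have largely stopped transcription, and the transcripts they hold are stored, translated or degraded during maturation.

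On the deposited scale most pore and lamina transcripts differed by less than 2-fold between stages, and a small number fell far below their GV level. Other scales between stages changed these sizes, as given below. Of the 36 genes, 4 were called higher in MII oocytes (Nup37, Pom121, Nup62 and Lmnb1), where 10.5% of all genes were, and 13 were called lower, where 37.8% of all genes were (limma, Benjamini-Hochberg adjusted p under 0.05 over all tested probe sets). The fall was 2-fold or more in 8 genes (Nup133, Nup43, Nup205, Nup155, Nup214, Lmna, Lmnb2 and Lbr), against 23.1% of all genes, and 0 genes rose as much. The other 19 genes were not called, and the 95% interval of the difference lay within 2-fold either way in all 19. Of all genes, 50.1% were not called and had such an interval. The values of both stages did not overlap in 22 of the 36 genes, against 57.9% of all genes. The median log2 difference (MII minus GV) was -0.17 over the 36 genes and -0.20 over all genes, and 18 of the 36 lay below the median of all genes. On the level of single probe sets 9 of the 79 were called higher, against 10.9% of all probe sets, and 26 lower, against 34.1% of all probe sets. These shares are close to those of all genes, so the counts say nothing particular about the pore and lamina genes as a whole, and what follows concerns how they differ among themselves.

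**Figure D1:**
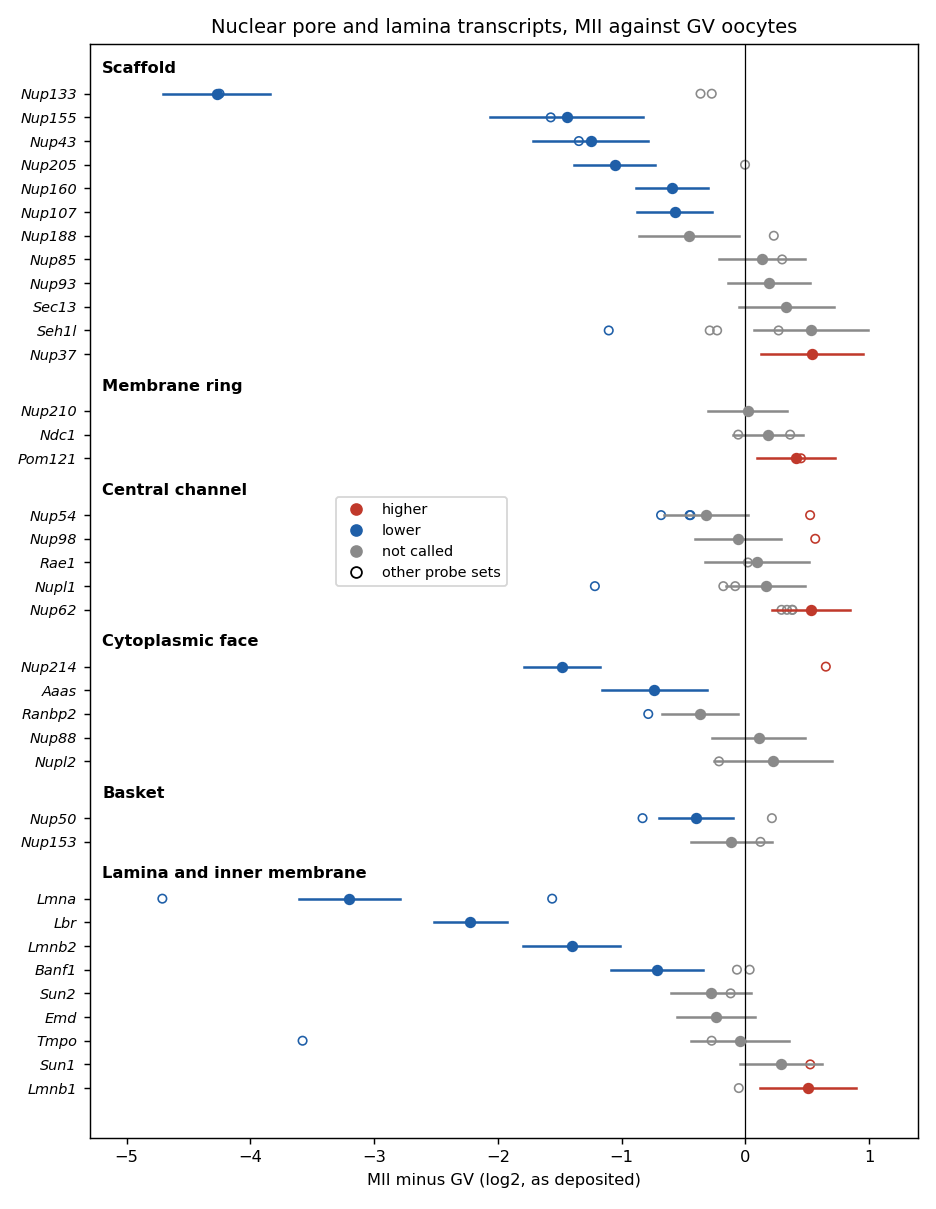
Log2 difference of MII minus GV oocytes (horizontal axis) for the 36 genes by role (vertical axis), with filled points for the brightest probe set of each gene, bars for its 95% interval from the moderated fit, and open points for the gene's other probe sets. Red marks calls higher in MII, blue calls lower and grey no call. Nup133, Lmna and Lbr stand furthest to the left, at -4.27, -3.20 and -2.22, and 19 genes are grey.

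The scaffold held 12 of the genes, and its transcripts did not move together. In MII oocytes 6 fell, 1 rose and 5 were not called, with a median log2 difference of -0.51. Of all genes 37.8% fell and 10.5% rose, and with so few genes the counts here and in the groups below are not set apart from these shares. The outer ring, built from copies of a Y-shaped complex, had 4 of 8 genes lower and 1 higher, with a median of -0.22. In the inner ring, which lies against the membrane and lines the channel, 2 of 4 genes fell and 0 rose, with a median of -0.75. The scaffold's median level per array was 8.46, 8.89 and 8.73 on the log2 scale in MII oocytes and 8.84, 9.04 and 8.76 in GV oocytes, so these medians overlapped. They did not rest on the same genes in every array, so their overlap does not describe the change of the genes themselves.

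Nup133, a subunit at the stem of the Y-shaped complex, had the largest fall of the pore genes. Its brightest probe set read 4.12, 3.91 and 4.04 in the MII arrays and 8.71, 8.26 and 7.93 in the GV arrays on the log2 scale. All MII values were thus below the medians of their arrays and all GV values above theirs, with no overlap. The log2 difference was -4.27 ± 0.19 (SE; MII 4.03 ± 0.11 and GV 8.30 ± 0.39, SD, n = 3 each), with a limma Benjamini-Hochberg adjusted p of 8.5e-08. As deposited, this is a level 19.3-fold lower in MII oocytes. The files give no measure of background and the MII values are dim, so background alone would make this a lower limit. The size also depends on the scale between stages. On the log2 scale it was -3.65 with array medians made equal and -5.15 with poly-A controls made equal. A further probe set of Nup133 fell by 4.25 on the log2 scale, whereas the remaining 2 probe sets were below the median of every array at both stages and were not called (-0.36 and -0.27).

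The promoter windows of 3 genes with large falls are shown for reference, to identify these genes by sequence. They are the genes with the largest falls of at least 2-fold for which the RefSeq promoter table (GRCm38.p6) lists a single start and that could be matched and printed here. Each runs 5′ to 3′ on the gene's strand over 300 bases, most of them before the annotated start, with capitals for TGACGTCA, the cAMP response element, and for CCAAT, the box bound by NF-Y, both searched on either strand (TGACGTCA reads the same on both, and CCAAT on the other strand reads ATTGG). The motifs were chosen after the sequences and the values had been seen.
Nup133, chr8:123949216-123949515, minus strand: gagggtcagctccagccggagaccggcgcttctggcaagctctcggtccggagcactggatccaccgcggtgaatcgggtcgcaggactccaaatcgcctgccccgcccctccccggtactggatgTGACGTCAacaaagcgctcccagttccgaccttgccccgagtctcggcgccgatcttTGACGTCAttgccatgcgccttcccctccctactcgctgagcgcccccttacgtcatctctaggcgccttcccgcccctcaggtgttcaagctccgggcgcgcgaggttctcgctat
Lbr, chr1:181842352-181842651, minus strand: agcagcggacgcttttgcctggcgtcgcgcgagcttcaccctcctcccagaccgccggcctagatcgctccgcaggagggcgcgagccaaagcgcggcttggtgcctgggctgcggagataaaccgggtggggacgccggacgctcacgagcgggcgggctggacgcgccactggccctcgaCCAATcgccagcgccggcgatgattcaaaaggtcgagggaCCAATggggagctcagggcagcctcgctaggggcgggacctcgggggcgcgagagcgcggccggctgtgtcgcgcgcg
Nup214, chr2:31974200-31974499, plus strand: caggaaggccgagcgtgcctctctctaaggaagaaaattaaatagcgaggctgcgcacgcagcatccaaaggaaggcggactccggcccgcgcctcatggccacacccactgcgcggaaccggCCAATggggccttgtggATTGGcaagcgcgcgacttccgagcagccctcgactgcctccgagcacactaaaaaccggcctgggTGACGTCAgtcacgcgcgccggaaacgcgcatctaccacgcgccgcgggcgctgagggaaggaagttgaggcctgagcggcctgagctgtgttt
TGACGTCA occurred in 2 copies in the Nup133 window and in 1 copy in the Nup214 window, and CCAAT in 2 copies each in the Lbr and Nup214 windows. Over all 40 windows of the 32 genes that could be matched, TGACGTCA was found in 3 (7.5%), against 1.79% of 32851 windows of the same length genome-wide. CCAAT was found in 19 of the 40 (47.5%), against 37.4% of all windows, and the TATA box TATAAA in 4 (10%), against 13.6%. In the printed windows the motifs do not overlap. The matches describe letters in these windows, and binding or promoter activity was not measured here.

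Besides Nup133, the largest fall in the outer ring was that of Nup43, a small β-propeller subunit, which averaged 6.42 ± 0.28 in MII and 7.66 ± 0.35 in GV oocytes on the log2 scale (SD, n = 3 each), a difference of -1.25 ± 0.21 (SE) with an adjusted p of 7.0e-04 (limma, Benjamini-Hochberg). Both of its probe sets fell. Nup107, a core subunit of the stem next to Nup133, and Nup160, on an arm of the Y, fell by 0.57 and 0.59 on the log2 scale, with adjusted p of 0.0059 and 0.0037 (limma, Benjamini-Hochberg). Nup37, the partner of Nup160, went the other way. Its values were 10.22, 10.36 and 10.75 in the MII arrays and 9.66, 10.16 and 9.88 in the GV arrays, a log2 difference of 0.54 ± 0.18 (SE) with an adjusted p of 0.036 (limma, Benjamini-Hochberg). The highest GV array lay just below the lowest MII array, and the call was lost when any 1 of 4 arrays was left out (MII replicates 2 and 3, GV replicates 1 and 3), with values of 0.39 to 0.67 over all 6 such fits.

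The other outer ring genes were not called. Nup85, which joins the arm to the hub of the Y, had a log2 difference of 0.13 with a 95% interval of -0.21 to 0.48. Sec13, which also coats vesicles leaving the endoplasmic reticulum, had 0.33 (-0.05 to 0.71). Seh1l, which also serves in a complex that senses amino acids, had 0.53 (0.07 to 0.99) at an adjusted p of 0.060 (limma, Benjamini-Hochberg), and its other 4 probe sets lay between -1.10 and 0.27. The lowest of these, with values of 2.71 to 3.13 in MII and 3.76 to 4.28 in GV arrays, was called lower although it was below the median of every array.

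In the inner ring, Nup155 and Nup205 fell. Nup155, which links the ring to the membrane, averaged 6.73 ± 0.64 in MII and 8.18 ± 0.20 in GV oocytes (SD, n = 3 each), a log2 difference of -1.44 ± 0.28 (SE) with an adjusted p of 0.0018 (limma, Benjamini-Hochberg). The wide MII spread came from MII replicate 2, where the other MII arrays read 7.17 and 7.03, and the difference was -1.08 without it. Nup155's other probe set fell by 1.57 on the log2 scale. Nup205, a large solenoid subunit, averaged 8.26 ± 0.15 in MII and 9.31 ± 0.15 in GV oocytes, a log2 difference of -1.05 ± 0.15 (SE) with an adjusted p of 2.0e-04 (limma, Benjamini-Hochberg), and a dim probe set of the same gene was at 0.00. Nup188, the paralogue of Nup205, had -0.45 (95% interval -0.86 to -0.05, adjusted p = 0.067, limma with Benjamini-Hochberg) and was not called. Nup93, to which both bind, had 0.19 (-0.14 to 0.52).

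Of the 3 transmembrane pore genes 1 rose and 0 fell, where 10.5% and 37.8% of all genes did. Pom121, which acts early when pores are built into an intact envelope, read 10.57, 10.55 and 10.45 in the MII arrays and 10.29, 9.95 and 10.10 in the GV arrays. The stages did not overlap, and the log2 difference was 0.41 ± 0.14 (SE, adjusted p = 0.038, limma with Benjamini-Hochberg), a rise of 1.33-fold. Its other probe set rose by 0.45 on the log2 scale. The call of the brightest probe set was lost when any 1 of 5 arrays was left out (all but GV replicate 1), at 0.33 to 0.50 over the 6 fits. Ndc1, the membrane subunit shared with yeast spindle pole bodies, had 0.18 (95% interval -0.10 to 0.47), and Nup210, with a large domain in the envelope lumen, had 0.02 (-0.30 to 0.34).

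Of the 5 central channel genes 1 rose, where 10.5% of all genes did, and 4 were not called, with a median log2 difference of 0.10. Nup62, the defining repeat-rich subunit of the channel, read 12.20, 12.41 and 12.33 in the MII arrays and 11.82, 11.91 and 11.62 in the GV arrays, and all MII values were above all GV values. The difference was 0.53 ± 0.14 on the log2 scale (SE, adjusted p = 0.012, limma with Benjamini-Hochberg). The other 4 probe sets of Nup62 were also above 0, at 0.29 to 0.38, and were not called, so the call was lost without probe sets that can match several transcripts (0.38, adjusted p = 0.24, limma with Benjamini-Hochberg). Its partners in the channel trimer were not called, Nupl1 (also named Nup58) at 0.17 (95% interval -0.15 to 0.48) and Nup54 at -0.32 (-0.66 to 0.02). Nup98, whose transcript also encodes the outer ring subunit Nup96, had -0.06 (-0.41 to 0.29), although its other probe set was called higher at 0.57. Rae1, the mRNA export factor bound to Nup98, had 0.10 (-0.32 to 0.52).

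On the cytoplasmic face 2 of 5 genes fell and 0 rose, where 37.8% and 10.5% of all genes did, with a median log2 difference of -0.37. Nup214, which holds the mRNA export machinery at the filaments, read 10.27, 10.27 and 10.40 in the MII arrays and 11.83, 11.91 and 11.64 in the GV arrays. Every MII value was more than 1 log2 unit below every GV value. The difference was -1.48 ± 0.14 (SE, adjusted p = 1.0e-05, limma with Benjamini-Hochberg), or 2.79-fold lower. Nup88, its direct partner, had 0.11 (95% interval -0.27 to 0.48) and was not called. Aaas, which encodes Aladin and whose loss leaves female mice infertile, fell by 0.74 on the log2 scale (SE 0.19, adjusted p = 0.0099, limma with Benjamini-Hochberg). Ranbp2, which forms the filaments themselves, had -0.37 (-0.67 to -0.06) and an adjusted p of 0.054 (limma, Benjamini-Hochberg). Nupl2 was below the median of every array and had 0.23 (-0.25 to 0.70).

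The basket was represented by only 2 genes. Nup50, a mobile subunit that helps release imported cargo, read 9.17, 9.08 and 9.04 in the MII arrays and 9.41, 9.63 and 9.46 in the GV arrays, a log2 difference of -0.40 ± 0.13 (SE, adjusted p = 0.033, limma with Benjamini-Hochberg). All MII values were below all GV values, but the call was lost when any 1 of 4 arrays was left out (MII replicates 2 and 3, GV replicates 2 and 3), at -0.45 to -0.34 over the 6 fits. Another probe set of Nup50 fell by 0.83 on the log2 scale and the remaining one was not called (0.22). Nup153, the anchor of the basket, had -0.11 (95% interval -0.44 to 0.22). The median of both genes was 9.83, 9.61 and 9.66 in the MII arrays and 9.96, 9.96 and 9.95 in the GV arrays, a difference of -0.26.

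The lamina and inner membrane group had the widest spread after the scaffold. Of its 9 genes 4 fell, 1 rose and 4 were not called, with a median log2 difference of -0.27. Of all genes 37.8% fell and 10.5% rose. The group's median per array was 6.99, 6.98 and 6.79 in MII oocytes and 7.90, 7.37 and 7.49 in GV oocytes, and these did not overlap. The GV medians were the values of Lmnb1, which was called higher in MII oocytes. The MII medians were values of Tmpo and Emd, which were not called. The gap between these medians is therefore not a change of the same genes. Of the 3 lamin genes 2 fell and 1 rose.

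Lmna, which encodes lamins A and C, had the largest fall of the group. Its brightest probe set read 6.11, 5.60 and 5.98 in the MII arrays and 8.93, 9.38 and 8.97 in the GV arrays, with a gap between the stages of more than 2 log2 units. The difference was -3.20 ± 0.18 (SE; MII 5.89 ± 0.27 and GV 9.09 ± 0.25, SD, n = 3 each), 9.19-fold lower, with an adjusted p of 3.3e-07 (limma, Benjamini-Hochberg). Its other probe sets were called lower too, at -4.71 and -1.56, so the direction was shared and the size was not. Lmnb1, a B-type lamin that stays attached to membranes, read 8.29, 8.03 and 7.96 in the MII arrays and 7.90, 7.37 and 7.49 in the GV arrays. The lowest MII array was only just above the highest GV array. The log2 difference was 0.51 ± 0.17 (SE, adjusted p = 0.037, limma with Benjamini-Hochberg), and the call was lost when any 1 of 4 arrays was left out (MII replicates 1 and 2, GV replicates 2 and 3), at 0.40 to 0.66 over the 6 fits. Its other probe set was at -0.05. Lmnb2, the other B-type lamin, read 3.07, 2.98 and 2.84 in the MII arrays and 4.04, 4.40 and 4.67 in the GV arrays. Lmnb2 was below the median of every array at both stages, so its log2 difference of -1.40 ± 0.18 (SE, adjusted p = 9.2e-05, limma with Benjamini-Hochberg) was measured on dim signals.

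Among the proteins that tie the lamina to membrane and chromatin, Lbr fell most. Lbr encodes the lamin B receptor, which binds heterochromatin and is also a sterol reductase, and it read 8.07, 8.06 and 8.18 in the MII arrays and 10.25, 10.42 and 10.30 in the GV arrays. The stages were more than 2 log2 units apart with little spread, and the difference was -2.22 ± 0.13 (SE, adjusted p = 4.2e-07, limma with Benjamini-Hochberg), or 4.67-fold lower. Banf1, whose product bridges chromatin and the inner membrane, fell by 0.72 on the log2 scale (SE 0.17, adjusted p = 0.0055, limma with Benjamini-Hochberg), while its other probe sets were at 0.04 and -0.07. Emd, which encodes emerin, had -0.24 (95% interval -0.55 to 0.08). Sun1 and Sun2, which connect the lamina to the cytoskeleton across the envelope, had 0.29 (-0.05 to 0.62) and -0.27 (-0.60 to 0.05), and neither was called, although another probe set of Sun1 was called higher at 0.53. Tmpo, which encodes the LAP2 proteins, had -0.04 (-0.44 to 0.35) at its brightest probe set.

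**Figure D2:**
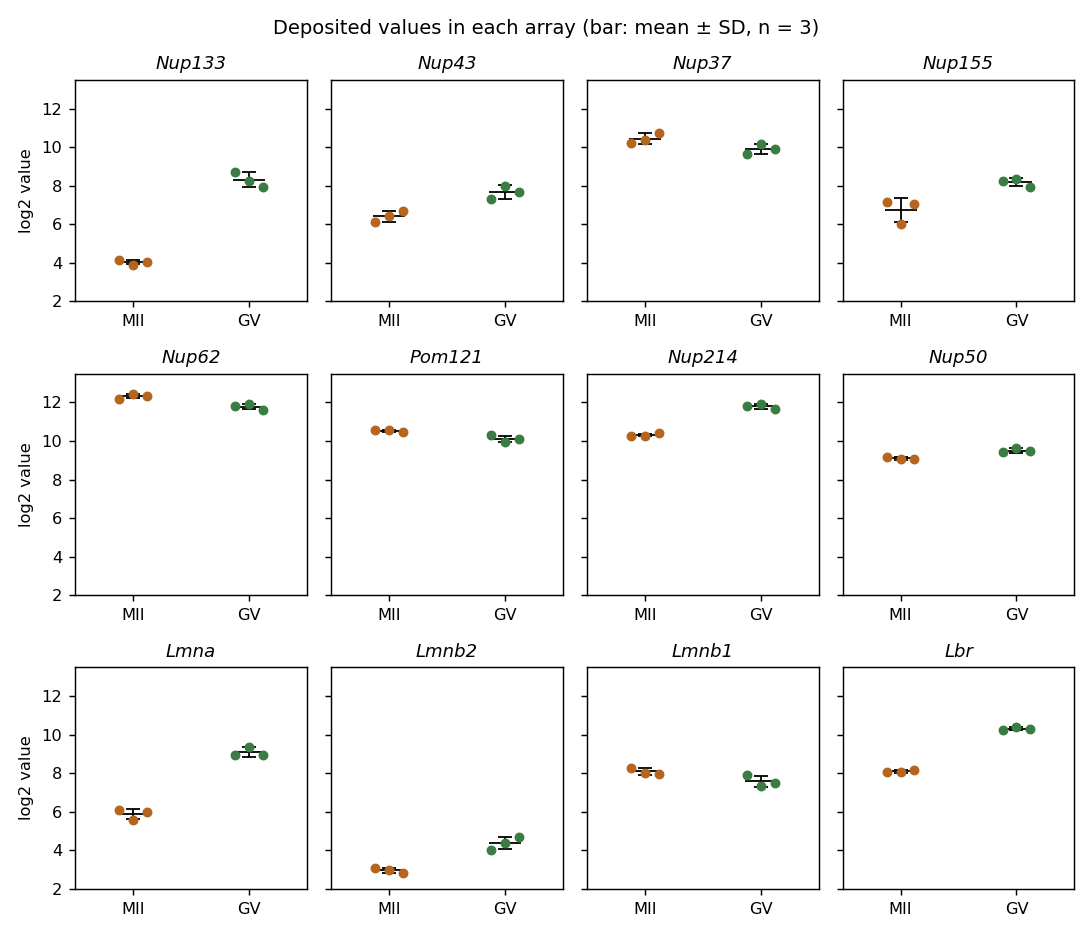
Deposited log2 values (vertical axis) of 12 genes in the 3 MII arrays (left in each panel) and the 3 GV arrays (right), with points for arrays and bars for the mean and its SD. MII and GV values lie more than 2 log2 units apart for Nup133, Lmna and Lbr, and close to each other for Nup37, Pom121, Nup50 and Lmnb1.

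Probe sets of the same gene did not always give the same answer. In 9 of the 25 genes with several probe sets, their differences spanned more than 1 log2 unit, and in 2 of the 25 (8.0%), Nup54 and Nup214, probe sets were called in opposite directions, against 10.8% of all genes with several. For Nup214 the second probe set read 7.01, 7.16 and 7.54 in the MII arrays and 6.40, 6.60 and 6.75 in the GV arrays, and was called higher at 0.65 ± 0.17 (SE, adjusted p = 0.011, limma with Benjamini-Hochberg). For Nup54 the brightest probe set read 9.95, 10.04 and 9.72 in the MII arrays and 10.40, 10.08 and 10.18 in the GV arrays and was not called. The next 3 were called lower, at -0.44, -0.68 and -0.45, with values of 9.26, 9.33 and 9.12 in the MII arrays and 9.71, 9.63 and 9.71 in the GV arrays for the first of them. The second of them read 9.13, 9.25 and 8.96 in the MII arrays and 9.69, 9.83 and 9.85 in the GV arrays, and the last 6.23, 6.47 and 6.17 in the MII arrays and 6.66, 6.76 and 6.81 in the GV arrays. These 4 probe sets were lower in every MII array than in every GV array. The dimmest probe set of Nup54, at 5.48, 5.37 and 5.61 in the MII arrays and 5.25, 4.82 and 4.83 in the GV arrays, was called higher at 0.52.

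The widest disagreements besides Nup133 were in Lmna and Tmpo, and the Tmpo probe set below was chosen after its values were seen. A probe set of Tmpo read 5.60, 5.00 and 4.11 in the MII arrays and 8.26, 8.49 and 8.70 in the GV arrays, a log2 difference of -3.58 ± 0.31 (SE, adjusted p = 6.7e-06, limma with Benjamini-Hochberg). The gene's other probe sets stood at -0.04 and -0.27 and were not called. A similar split was seen in Nupl1, with 1 probe set lower at -1.22 and the other 3 between -0.18 and 0.17. The files do not say which isoform or which part of a transcript a probe set reads, and why these probe sets differ was not tested.

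**Figure D3:**
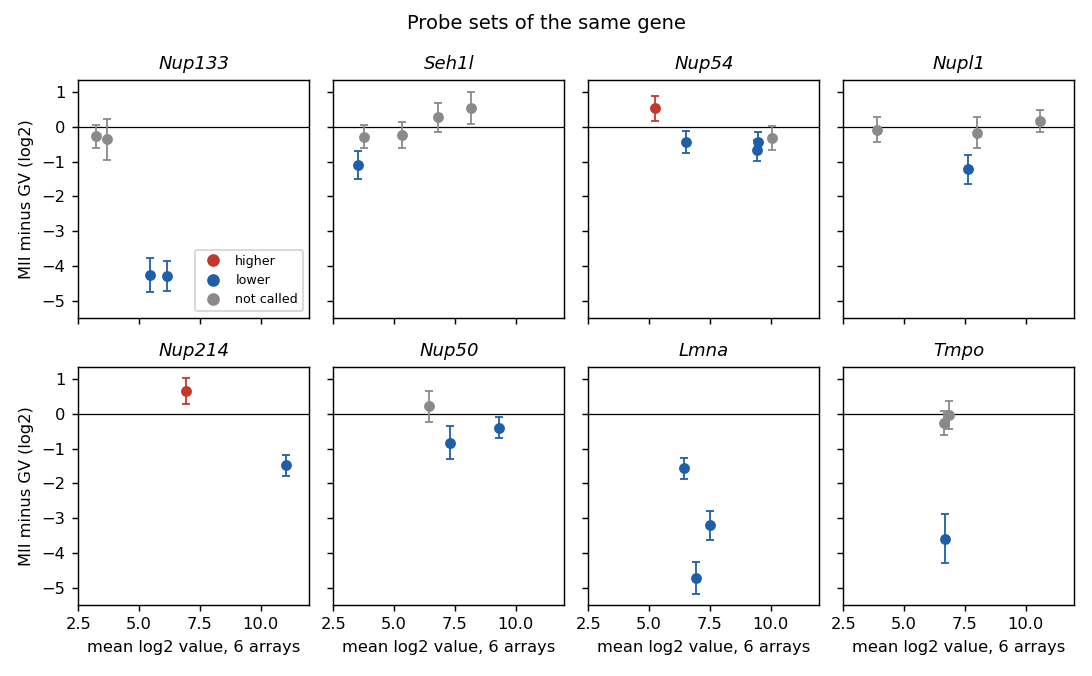
Log2 difference of MII minus GV (vertical axis) against the mean log2 value over the 6 arrays (horizontal axis) for every probe set of 8 genes, with bars for the 95% interval. Probe sets of Nup133 and Tmpo fall into a group near -4 and a group near 0, whereas all 3 of Lmna lie below 0.

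The direction of the small differences depended on how the stages were put on 1 scale, whereas that of the large falls did not. Of the scalings that shift whole arrays, only equal medians raised MII over GV, by 0.62, too little to turn a 2-fold fall. The kept direction of the large falls under those scalings was therefore fixed beforehand. The array medians were 0.62 lower in MII than in GV oocytes on the log2 scale, while hybridization controls, which are added to the labelled sample, were 0.40 higher, and poly-A controls, which are added to the RNA, were 0.87 higher. The hybridization controls overlapped between stages, with means of 9.86, 9.66 and 9.42 in the MII arrays and 9.82, 8.97 and 8.94 in the GV arrays. Their shift was 0.69 without GV replicate 1, 0.27 without GV replicate 2 and 0.25 without GV replicate 3. The poly-A controls had means of 5.14, 5.43 and 5.34 in the MII arrays and 4.71, 4.28 and 4.31 in the GV arrays. In every array this mean was below the median of the array, so the poly-A scaling rests on dim signals. With array medians made equal 20 of the 36 genes were called higher and 8 lower, where 55.5% and 19.9% of all probe sets were. With quantile normalization 17 were higher and 8 lower, where 34.8% and 22.1% of all probe sets were. With hybridization controls made equal 0 were higher and 12 lower, where 0.48% and 33.2% of all probe sets were. With poly-A controls made equal 0 were higher and 31 lower, where 0.30% and 84.9% of all probe sets were. The counts thus moved with those of the whole table. The median of all probe sets was itself -0.15 as deposited, and 0.47, 0.19, -0.56 and -1.02 under these 4 scalings. All 8 falls of 2-fold or more were called lower under each of the 4 scalings, and under each of the 15 alternatives that gave the gene a value. They ranged from -5.15 to -2.29 for Nup133, from -4.07 to -2.58 for Lmna, from -3.09 to -1.60 for Lbr and from -2.35 to -0.41 for Nup214. The range was -2.12 to -0.59 for Nup43, -1.93 to -0.43 for Nup205, -2.32 to -0.82 for Nup155 and -2.28 to -0.78 for Lmnb2. Direction and call were thus kept in all 8, but a size of 2-fold was not kept in Nup214, Nup43, Nup205, Nup155 and Lmnb2. Of the 4 rises, 0 were called under all 4 scalings. Nup37, Pom121, Nup62 and Lmnb1 were called higher with equal medians and with quantile normalization. With equal medians they rose by more than 2-fold (1.03 to 1.17), as did Seh1l (1.15). They stood at 0.00 to 0.14 with equal hybridization controls. With equal poly-A controls these 4 were below 0 (-0.46 to -0.33) and none was called. The median of the 36 genes was then -1.05, against -1.07 over all genes. Of the smaller falls, Nup107, Nup160, Aaas and Banf1 were called lower with equal hybridization or poly-A controls and were not called with equal medians or quantile normalization. Nup50 was called lower with equal poly-A controls (-1.27) and not with equal hybridization controls (-0.81, adjusted p = 0.077, limma with Benjamini-Hochberg), and it was above 0 with equal medians (0.22) and quantile normalization (0.02).

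Equal medians and equal controls shift every probe set of an array by 1 constant, so the stage difference of every probe set moves by the same amount. They leave the distance of a group from all other genes as it was, and only quantile normalization could change it. The constants differed between arrays of a stage, most of all for the hybridization controls. The spread within a stage therefore changed too, and calls can change with it. The scaffold, basket and lamina medians lay 0.31, 0.06 and 0.07 below the median of all genes on the log2 scale as deposited. With quantile normalization the scaffold median was 0.03 and the basket median 0.11, against 0.17 for all genes, whereas the lamina median was above it, at 0.39. The basket median rests on only 2 genes.

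**Figure D4:**
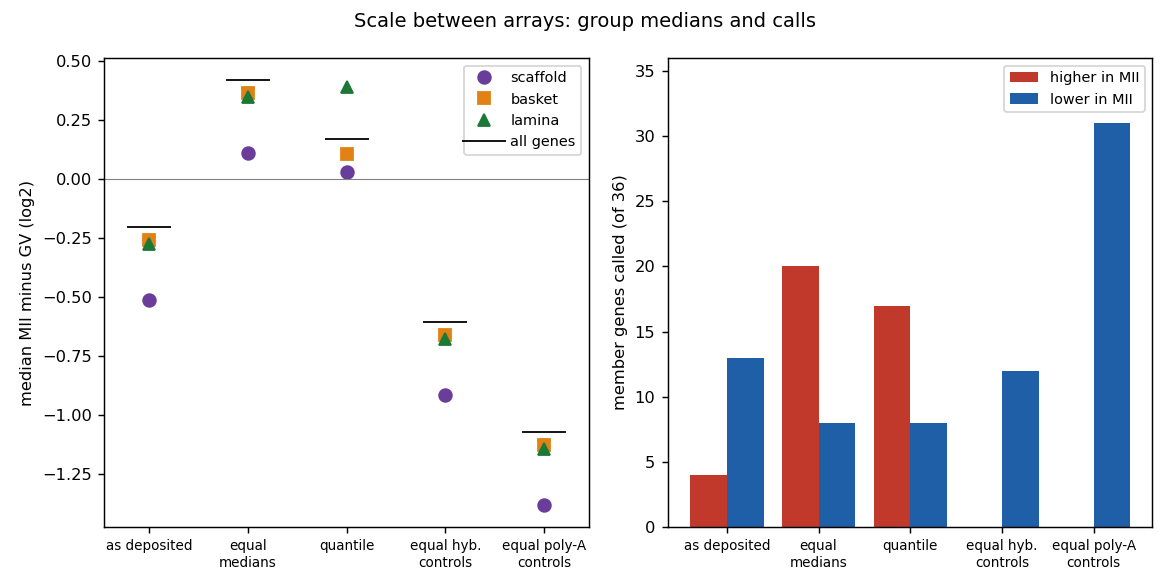
Left, the median log2 difference of MII minus GV (vertical axis) of the scaffold, basket and lamina genes and of all genes (black bars) as deposited and under 4 scalings (horizontal axis). Right, the number of the 36 genes called higher and lower in MII under each, from 20 higher and 8 lower with equal medians to 0 higher and 31 lower with equal poly-A controls. Of all probe sets, 55.5% were called higher and 19.9% lower with equal medians, and 0.30% and 84.9% with equal poly-A controls.

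Genes that act on the pore and lamina were listed alongside them, and 25 of 30 had a usable probe set. In MII oocytes 5 were called higher and 7 lower, where 10.5% and 37.8% of all genes were, with a median log2 difference of -0.05 against -0.20 over all genes. The largest rises were in Syne2 (0.84 ± 0.17), a nesprin that joins SUN proteins to the cytoskeleton, Tor1aip1 (0.71 ± 0.16), an inner membrane protein that binds lamins, and Ahctf1 (0.66 ± 0.17), which encodes Elys, the factor that seeds pores on chromatin (SE throughout). Their adjusted p were 0.0025, 0.0044 and 0.0097 (limma, Benjamini-Hochberg), and with equal hybridization or poly-A controls none of the 3 was called. The largest falls were in Rce1 (-1.70 ± 0.19) and Icmt (-1.30 ± 0.15), which process the prenylated tails of lamins and other proteins, and in Chmp7 (-0.95 ± 0.15), which recruits the machinery that seals the envelope. Their adjusted p were 4.7e-05, 4.0e-05 and 4.0e-04 (limma, Benjamini-Hochberg). Rce1 and Icmt were called lower under all 4 scalings, and Chmp7 with equal hybridization or poly-A controls only.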

How the data were processed

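The values are log2 expression values deposited by the authors, 1 per probe set and array, for 3 MII and 3 GV pools of oocytes. RMA and affy are the tools named, per the submitters' processing notes, without versions. The sources used here do not give the background correction or the rule that kept these probe sets. The array of GV replicate 1 held 7077 distinct values, and the values of all arrays ran from 1.85 to 13.3. Identical values recur in different arrays, yet the array medians differed. RNA was amplified in 2 rounds from mixed primers, per the labels' protocols. The number of arrays limits the precision, and no detection calls were used.

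Of 21702 probe sets 56 controls were set aside. Of the 21646 tested, 19078 had 1 symbol in the platform annotation, 550 several and 2018 none, and all 36 members were found in a RefSeq gene table used for names. The stages were compared with limma (version 3.58.1, R version 4.3.3; functions lmFit and eBayes, group as the only term, 2-sided, no intensity filter). P-values of the whole table were adjusted by Benjamini-Hochberg, and an adjusted p under 0.05 made a call. The total degrees of freedom were 9.78, of which 5.78 came from the prior. The fit was tested on simulated data. The design text calls the samples biological replicates.

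All members are named, with array values for the called member of largest rise and of largest fall in each of 6 role groups and for genes with opposite calls. Values by array of Lbr and of the low Tmpo probe set were added after they were seen. For the other list up to 3 rises and 3 falls are named. The members and the lists were chosen with earlier results of these data known. Alternatives changed the scale between arrays, the filter, the probe set types, the variance model, the replicate block, each array in turn, and the probe set rule.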

Additional observations from a re-analysis of the deposited data

How the results depend on the processing

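The 8 falls of 2-fold or more kept direction and call in each of the 15 alternatives that gave them a value (Lmna and Lmnb2 had none without shared probe set types, and Lmnb2 none with the intensity filter). The variance model and the replicate block leave the difference itself as it was. Equal medians raised it by too little to turn such a fall, and equal controls lowered it. Direction could therefore not turn under these alternatives. The scale between arrays moved most other results. With array medians made equal, 44 member probe sets were called higher and 16 lower, and 12016 and 4306 of all probe sets. The scaffold, basket and lamina medians were 0.11, 0.37 and 0.35. With quantile normalization the counts were 37 and 17, and 7538 and 4794, and the medians 0.028, 0.11 and 0.39. With equal hybridization controls, 0 member probe sets and 104 of all were higher, with medians of -0.92, -0.66 and -0.68. With equal poly-A controls, no member probe set (0) was called higher and 66 were lower, against 65 and 18380 of the whole table, with medians of -1.38, -1.13 and -1.15. Member genes called higher and lower were 20 and 8, 17 and 8, 0 and 12, and 0 and 31 under these 4.

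Signs turned with equal medians for Nup107 (0.052), Nup160 (0.031), Nup188 (0.17), Nup54 (0.31), Nup98 (0.56), Ranbp2 (0.26), Nup153 (0.51), Nup50 (0.22), Emd (0.39), Tmpo (0.58) and Sun2 (0.35). With quantile normalization they turned for Nup188 (0.23), Nup54 (0.013), Nup98 (0.20), Ranbp2 (0.22), Nup153 (0.19), Nup50 (0.018), Emd (0.43), Tmpo (0.62) and Sun2 (0.39). With equal hybridization controls they turned for Nup85 (-0.27), Sec13 (-0.072), Nup93 (-0.21), Nup210 (-0.39), Ndc1 (-0.22), Nupl1 (-0.24), Rae1 (-0.31), Nup88 (-0.30), Nupl2 (-0.18) and Sun1 (-0.12). With equal poly-A controls they turned for these genes too, at -0.74, -0.54, -0.68, -0.85, -0.69, -0.71, -0.78, -0.76, -0.65 and -0.58, and for Nup37 (-0.33), Seh1l (-0.34), Pom121 (-0.46), Nup62 (-0.34) and Lmnb1 (-0.36).

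The intensity filter left 4438 of all probe sets called lower and called Ranbp2. Without the _s, _x, _a and _f types, of 48 member probe sets 5 were higher and 14 lower, 4839 of all were lower, and Nupl1 was at -0.18; Nup62 was no longer called and Nup54 was. Fewer probe sets were tested under both. The mean over a gene's probe sets turned Seh1l (-0.16), Nupl1 (-0.33), Nup98 (0.25) and Nup153 (0.0055), ended the calls of Nup62, Nup50, Lmnb1 and Banf1 and called Ranbp2, Tmpo and Sun1. Leaving out 1 array at a time gave 1 to 4 member genes and 4 to 9 member probe sets called higher, 1547 to 2127 of all probe sets, and values of -0.15 to 0.040 for Nup98, -0.021 to 0.24 for Nup88, -0.14 to 0.13 for Tmpo, -0.060 to 0.09 for Nup210 and -0.070 to 0.28 for Rae1. Where not said otherwise, the cause was not tested.

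Whether the replicate numbers pair the samples is not known. Deviations of same-numbered arrays correlated at 0.091, 0.029 and 0.027, and no array correlated best with its own number. Arrays of different numbers correlated at -0.284 to 0.287. With so few arrays and no reference value for paired samples, these correlations cannot decide whether same-numbered arrays share a batch or day. With the replicate block 4 member genes were higher and 12 lower, Pom121 and Nup50 were no longer called and Seh1l was. Dim probe sets such as those of Lmnb2 and Nupl2 limit what can be said of their size.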

Other observations

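Of 5 measured genes of the listed enzymes that modify the tails of lamins, 3 were called lower in MII oocytes and 2 were not called. Of all genes, 37.8% were called lower. They were picked out of the list after their values were seen, and no test bears on them as a group. Of the lamins, Lmna and Lmnb2 were called lower and Lmnb1 higher. Rce1, which trims the prenylated tail, read 5.48, 5.53 and 5.56 in the MII arrays and 7.08, 7.67 and 6.91 in the GV arrays on the log2 scale. Icmt, which methylates it, averaged 7.96 ± 0.19 in the MII arrays and 9.26 ± 0.08 in the GV arrays (SD, n = 3 each). Zmpste24, the protease that makes mature lamin A, read 8.48, 8.09 and 8.49 in the MII arrays and 9.10, 9.38 and 9.15 in the GV arrays. The stages did not overlap in any of these 3 genes, as in 57.9% of all genes. The log2 difference of Zmpste24 was -0.86 ± 0.16 (SE, adjusted p = 0.0015, limma with Benjamini-Hochberg), and it was not called with equal array medians or quantile normalization. The farnesyltransferase subunits Fnta and Fntb, which attach the prenyl group, had -0.06 (95% interval -0.39 to 0.28) and -0.20 (-0.55 to 0.15) and were not called.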
